A study of Mus musculus with 17 samples.

Results

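All nuclei of the mouse neocortex were summed within each animal and compared between 4 mice exposed to chronic unpredictable stress (CUS) and 4 control mice, with no division into cell classes. Nuclei were profiled by sNucDrop-seq, a droplet method in which each transcript molecule carries a unique molecular identifier (UMI). A barcode was kept if 600 to 5000 genes were detected in it and under 5% of its UMIs came from the mitochondrial genome. Of 40000 deposited barcodes, 31486 were kept, 15501 from control mice and 15985 from CUS mice. All mice were C57BL/6 (C57BL/6J by the methods) and collected at postnatal day 80, and the labels name no engineered allele. The study describes the mice used for nuclei as male. The CUS mice had received 3 stressors a day for 12 days, and their neocortex was taken 24 h after the last one. Control mice were handled daily and housed in a separate room, so stress and room cannot be told apart. A second set of the same strain, 4 control and 5 CUS mice at postnatal day 90 with the same 12 days of stress, supplied bulk nuclear RNA of the medial prefrontal cortex (mPFC) for comparison. By the methods those mice had gone through behavioural tests and were taken a day after the last test, not a day after the last stressor.

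CUS is a rodent model of depression-related behaviour in which varied mild stressors, presented in an irregular order, repeatedly engage the hypothalamic-pituitary-adrenal axis. Glucocorticoids released by that axis act through the glucocorticoid and mineralocorticoid receptors, Nr3c1 and Nr3c2, which are transcription factors. Neuronal activity in the cortex induces a separate programme within minutes to hours, led by immediate-early transcription factors such as Fos, Egr1 and Nr4a1 and followed by secreted and synaptic proteins such as Vgf, Nptx2 and Homer1. RNA inside a nucleus is rich in unspliced and recently made transcripts, so long genes with many intronic reads carry a large share of the UMIs. A sum over all nuclei gives each animal a single profile, in which a lower level can reflect fewer nuclei of a type or less RNA per nucleus, and these cannot be told apart.

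The sums ranged from 6074138 to 15459579 UMIs per mouse, from 2267 to 4959 nuclei with a median of 1863 to 2566 UMIs each. Within groups, the chi-square of a pair of mice was 3.00 to 16.5 times its degrees of freedom over 12 pairs, so no library repeated another of its group. There were 27 barcode sequences that occurred in more than 1 library. The mitochondrial share of UMIs was below 0.5% in control mice 1 and 4 and CUS mice 1 and 2, and above it in the other 4 animals. The methods describe a pair of batches, each with 2 control and 2 CUS mice, but the batch of each animal was not given in the sources used here. Values within the sets of low and high mitochondrial share are also given for several genes. The cut was set after the data were seen, and whether these sets match the batches is not known. With no filter on barcodes the share was 0.548% in control mouse 1 and 0.659% in control mouse 4, so the sets depend on the filter.

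CUS mouse 2 stood apart from the other CUS mice. Each mouse was left out in turn, and the position of the absent mouse was then read in the genes that differed at an unadjusted p under 0.05 among the remaining 7. A mouse counted as on its own side when it lay on that side of the other group's mean. The choice of genes moves that mean away from the remaining mice, so the shares are compared between mice only, and no share stands for a mouse without a group difference. The absent control mice lay on the control side in 84.9% to 87.7% of such genes, and CUS mice 1, 3 and 4 lay on the CUS side in 80.0% to 90.9%. CUS mouse 2 lay on the CUS side in 48.7% of 2830 genes. By the stricter measure of being nearer to its own group's mean than to the other's, controls did so in 53.4% to 61.0% of genes, CUS mice 1 and 4 in 74.7% and 61.5%, CUS mouse 3 in 43.7% and CUS mouse 2 in 20.4%. Its label could not be checked against a targeted gene, since the design holds none. Values without it are given beside several genes and lists in which it parted from the other CUS mice. It was singled out from these same data. The p-values and calls obtained without it therefore describe the other 7 mice and are not valid error rates.

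**Figure D1:**
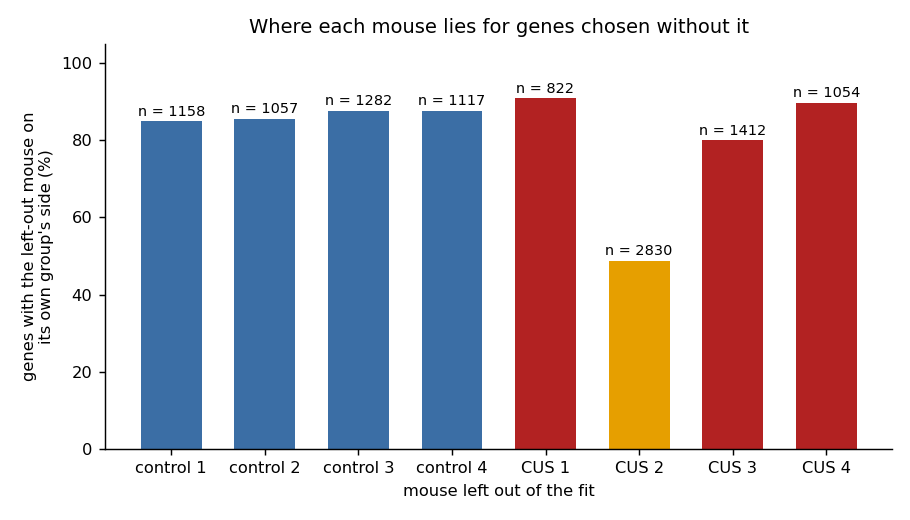
Each bar gives, for the mouse on the horizontal axis, the percentage of genes in which it lay on its own group's side of the other group's mean when the genes were chosen at an unadjusted p under 0.05 from the other 7 mice, with n the number of genes. CUS mouse 2 (orange) sits at 48.7%, and the other 7 mice sit between 80.0% and 90.9%.

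Across 17545 genes with enough counts, edgeR's quasi-likelihood test called 0 genes at a false discovery rate of 0.2 (0.00% of genes tested). The smallest adjusted p was 0.201, for Mical2, and the next was 0.630. At an unadjusted p under 0.05 there were 1359 genes, against the 5% of genes that this threshold admits by itself, 735 of them higher in CUS mice (4.19%) and 624 lower (3.56%). Without scaling by TMM, the trimmed mean of M-values that sets library sizes, 66.8% of the genes under this threshold were higher, against 54.1% with it. All 4 CUS mice lay above all 4 controls in 374 genes (2.13%) and below them in 399 (2.27%). Such separation, in either direction, has a two-sided exact permutation p of 0.0286, the smallest that 4 against 4 mice allow. Genes without a difference would show it at that rate over both directions, so a lack of overlap is not rare by itself. DESeq2 called 17 genes and edgeR's likelihood ratio test, with the same design, called 25. The study used the likelihood ratio test, within clusters and with a batch term. The values that follow are counts of UMIs scaled to a common library total with TMM factors (CPM), and fold changes are CUS over control on the log2 scale.

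Mical2, which encodes a monooxygenase that oxidises actin and promotes the disassembly of filaments, had the smallest p of all genes. It lies on chromosome 7 (mm10, 112225856 to 112355194, plus strand). Its level was 140, 131, 146 and 156 CPM in control mice 1 to 4 and 254, 219, 201 and 239 CPM in CUS mice 1 to 4. Every CUS mouse, mouse 2 included, was above every control mouse. The log2 fold change was 0.67 (SE 0.10, unadjusted p = 1.14e-05 by edgeR's quasi-likelihood test), and it stayed between 0.62 and 0.73 when any mouse was left out. The ratio was 0.67 within both the low and the high mitochondrial set. Adding that set as a term, after the data were seen, gave an adjusted p of 0.0565 by edgeR. In the bulk mPFC RNA of other mice Mical2 was also higher, by 0.53 on the log2 scale (adjusted p = 0.0476 by edgeR).

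Other genes with low p and no overlap between the groups were picked out after their values were seen, and none of them passed the threshold. Vgf, the precursor of secreted neuropeptides made by active neurons, was at 54.4, 54.0, 59.3 and 52.4 CPM in control mice and 84.7, 61.4, 77.5 and 82.4 CPM in CUS mice. CUS mouse 2 was the lowest of its group and only just above control mouse 3. The log2 fold change of Vgf was 0.48 (SE 0.11, unadjusted p = 0.000619 by edgeR), against 0.59 in bulk mPFC (adjusted p = 0.0465). Rims3, a presynaptic active-zone protein, was at 24.2 to 27.3 CPM in controls and 31.6 to 43.1 CPM in CUS mice, a log2 difference of 0.55 (SE 0.11). Helb, a DNA helicase, was at 22.0 to 26.8 CPM in controls and 32.8 to 46.7 CPM in CUS mice, with a log2 fold change of 0.65 (SE 0.13). Dbn1, which encodes the spine actin-binding protein drebrin, was at 47.3 to 55.3 CPM in controls and 64.7 to 77.4 CPM in CUS mice. All 4 CUS mice were above the controls for each of these genes, and CUS mouse 2 was the lowest CUS mouse for all but Mical2.

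Several genes lay below the controls in all 4 CUS mice. Atad2, a chromatin-bound AAA ATPase with a bromodomain, was at 43.4, 41.1, 42.2 and 36.3 CPM in control mice and 24.4, 26.6, 32.0 and 29.8 CPM in CUS mice. The groups did not overlap and the log2 fold change was -0.53 (SE 0.11, unadjusted p = 0.000289 by edgeR), with -0.12 in bulk mPFC. Lama4, a laminin chain of vascular basement membrane, was at 32.3 to 40.3 CPM in controls and 18.9 to 27.8 CPM in CUS mice. Mme, the membrane peptidase neprilysin, was at 16.2 to 18.5 CPM in controls and 8.97 to 13.4 CPM in CUS mice, a log2 fold change of -0.71 (SE 0.15). Gfpt2, an enzyme of the hexosamine pathway, was at 12.0 to 18.2 CPM in controls and 5.97 to 10.5 CPM in CUS mice, a log2 fold change of -0.88 (SE 0.19). In these 4 genes too, every CUS mouse was on the same side of all controls.

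**Figure D2:**
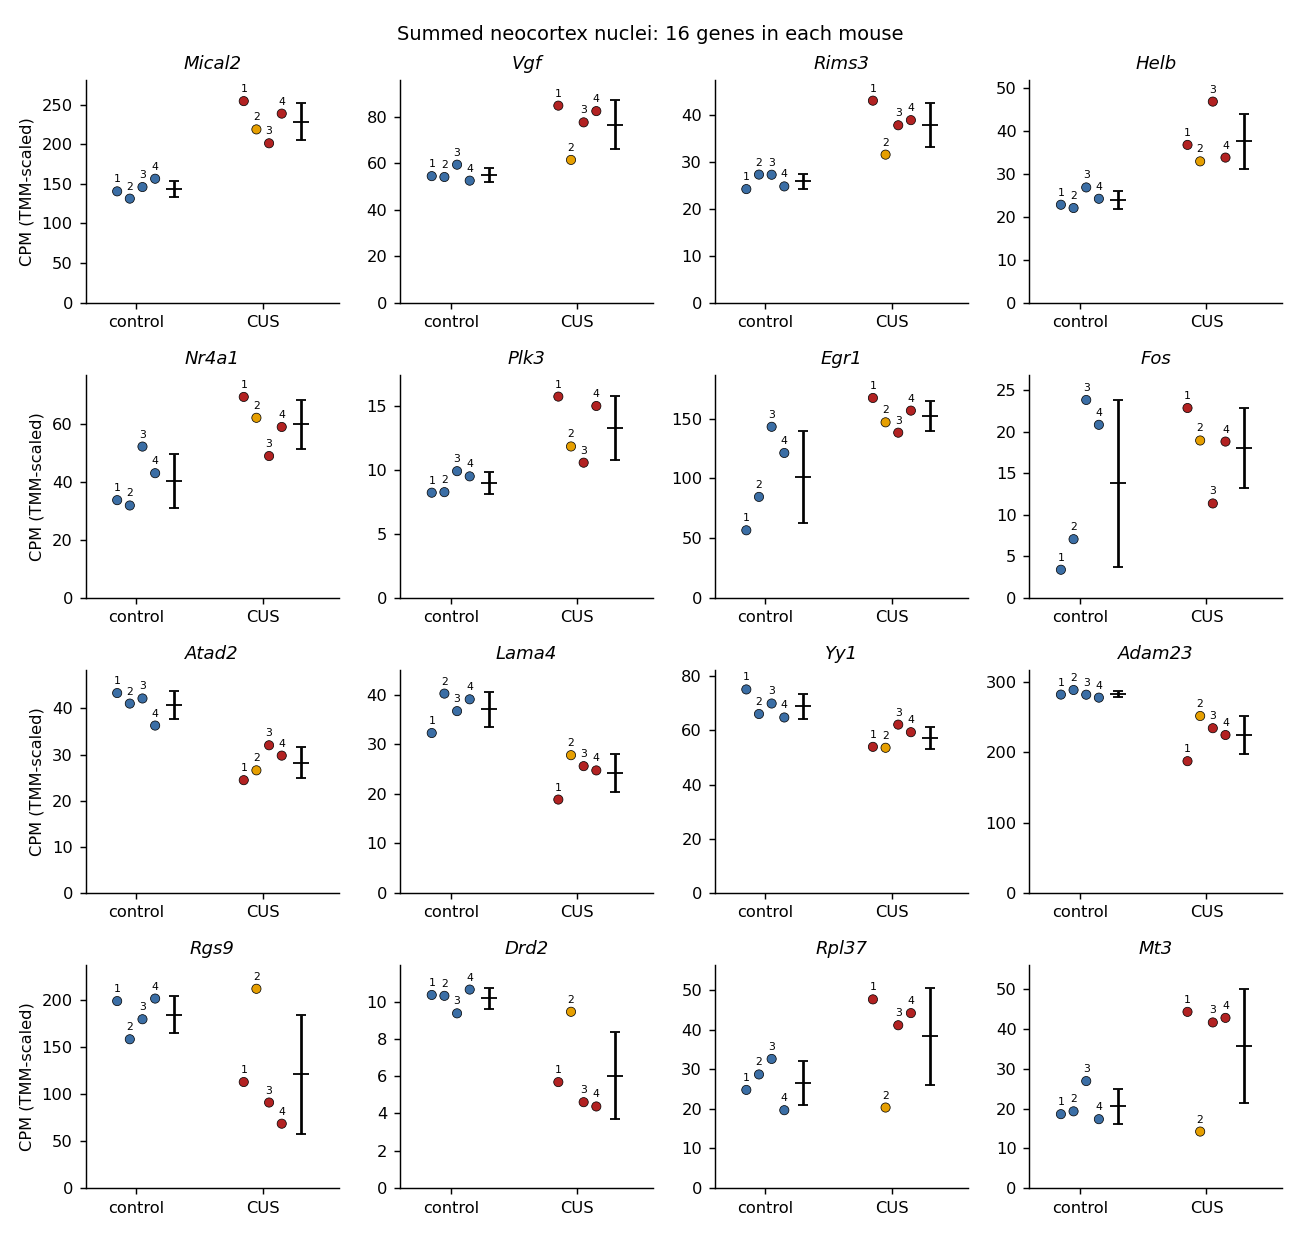
Each panel plots the CPM of a gene in the 4 control mice (blue) and 4 CUS mice (red, CUS mouse 2 orange), numbered by mouse, with the mean and SD of each group beside the points. Mical2, Vgf, Rims3, Helb, Plk3, Atad2, Lama4, Yy1 and Adam23 show no overlap between groups, whereas CUS mouse 2 sits with or beyond the controls for Rgs9, Drd2, Rpl37 and Mt3.

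Activity-regulated genes were mostly higher in CUS mice. Of a list of 60 such genes 55 were tested, and 47 of them were higher and 8 lower. There were 17 higher at an unadjusted p under 0.05 and 0 lower, where 4.19% of all tested genes were higher at that threshold. The median log2 fold change over the 55 was 0.36, against 0.01 over all tested genes. The groups did not overlap for 5 of them, all higher in CUS mice, where 2.13% of all genes were higher without overlap: Vgf, the kinase Plk3, the pseudokinase Trib1, the stress-response gene Ier3 and Ptgs2, the inducible cyclooxygenase. None was called at a false discovery rate of 0.2, and the median ranged from 0.19 to 0.45 over 21 alternative settings. It was lowest without CUS mouse 1, where 8 of the 55 were higher at an unadjusted p under 0.05 against 481 of all 17686 genes tested.

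Among the activity-regulated genes, promoter sequence is shown for 4 that were higher at an unadjusted p under 0.05, because their promoters hold the letters that activity-dependent factors are known to bind. The windows are the 250 bases before the RefSeq start on GRCm38.p6, read 5′ to 3′ on the gene's strand, and the genes were chosen after the motif search. Capitals mark TGACGTCA, the palindromic cyclic AMP response element bound by CREB, its TGACG part on either strand (CGTCA on the other), and in Dusp5 the CArG box bound by serum response factor. Arl4d encodes a small GTPase, Dusp1 and Dusp5 encode phosphatases that switch off MAP kinases, and Nr4a1 encodes an orphan nuclear receptor.
Arl4d (chr11:101665291-101665540, plus strand): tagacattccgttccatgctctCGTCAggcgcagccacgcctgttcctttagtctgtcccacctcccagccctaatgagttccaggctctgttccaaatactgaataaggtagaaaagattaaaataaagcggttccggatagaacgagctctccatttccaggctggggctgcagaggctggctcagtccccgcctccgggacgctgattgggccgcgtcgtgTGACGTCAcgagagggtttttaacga
Dusp1 (chr17:26508473-26508722, minus strand): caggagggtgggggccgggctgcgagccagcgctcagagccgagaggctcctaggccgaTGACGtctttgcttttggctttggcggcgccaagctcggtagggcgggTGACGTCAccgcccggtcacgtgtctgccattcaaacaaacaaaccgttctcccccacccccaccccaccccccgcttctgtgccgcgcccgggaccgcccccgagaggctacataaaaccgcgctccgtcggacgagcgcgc
Nr4a1 (chr15:101266596-101266845, plus strand): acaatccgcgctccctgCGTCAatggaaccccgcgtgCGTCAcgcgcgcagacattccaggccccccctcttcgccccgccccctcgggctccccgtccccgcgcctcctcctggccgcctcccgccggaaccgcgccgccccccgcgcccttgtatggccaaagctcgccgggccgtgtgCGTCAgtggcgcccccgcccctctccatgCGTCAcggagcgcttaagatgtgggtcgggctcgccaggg
Dusp5 (chr19:53528895-53529144, plus strand): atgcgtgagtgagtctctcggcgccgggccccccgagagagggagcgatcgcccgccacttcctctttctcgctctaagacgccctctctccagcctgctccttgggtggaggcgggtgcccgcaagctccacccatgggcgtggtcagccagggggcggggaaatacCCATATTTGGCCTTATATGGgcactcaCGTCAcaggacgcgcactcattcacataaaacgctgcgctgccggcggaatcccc

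Arl4d and Dusp1 each hold a full TGACGTCA, Nr4a1 holds 4 separate CGTCA and Dusp5 holds 2 adjoining CArG boxes. Each full element also counts as a TGACG on both strands, since the letters overlap. TGACGTCA was present in 1.55% of 32851 promoters of the table, in 2.43% of the promoters of tested genes and in 6 of 56 promoters of the 40 activity-regulated genes that could be matched (10.7%). It was present in 2 of 11 promoters of the 10 matched genes among the 17 that were higher at an unadjusted p under 0.05. TGACG on either strand was present in 25.2% of the promoters of tested genes, in 55.4% of those of activity-regulated genes and in 6 of those 11. TGACG thus occurred at about the same share in the activity-regulated genes that passed the unadjusted threshold as in the whole list, and presence of the letters says nothing of binding.

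Immediate-early transcription factors varied widely among control mice. Nr4a1 was at 33.7, 31.8, 52.1 and 43.0 CPM in control mice and 69.3, 62.1, 48.9 and 58.9 CPM in CUS mice. Only CUS mouse 3 fell inside the control range, and the log2 fold change was 0.57 (SE 0.15, unadjusted p = 0.00222 by edgeR). Egr1, a zinc-finger factor, was at 56.5, 84.5, 143 and 121 CPM in controls and 168, 147, 138 and 157 CPM in CUS mice, with a log2 fold change of 0.59 (SE 0.21). Control mice 3 and 4 were close to the CUS mice for Egr1, and control mice 1 and 2 were well below. Fos showed the same split, at 3.37 and 7.05 CPM in control mice 1 and 2, 23.8 and 20.8 CPM in control mice 3 and 4 and 11.4 to 22.8 CPM in CUS mice, and its log2 difference of 0.38 (SE 0.41) was smaller than its error. Within the low and the high mitochondrial set, the log2 ratio was 0.78 and 0.36 for Nr4a1, 0.82 and 0.37 for Egr1, and 0.79 and -0.03 for Fos.

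Of the genes that follow them in the activity programme, some overlapped the controls only through CUS mouse 2. Nptx2, a secreted pentraxin that gathers glutamate receptors, was at 9.32 to 15.3 CPM in controls and 22.4, 12.0, 21.5 and 16.1 CPM in CUS mice 1 to 4, so that CUS mouse 2 was inside the control range, and the log2 fold change was 0.51 with that mouse and 0.64 without it. Plk3 was at 8.21 to 9.90 CPM in controls and 10.6 to 15.7 CPM in CUS mice, a log2 fold change of 0.57 (SE 0.16). Bhlhe40, a repressor tied to the circadian clock, had a log2 fold change of 0.42 (SE 0.15), and in bulk mPFC it was called higher at 0.37 (adjusted p = 0.0495 by edgeR). Homer1, a scaffold of the postsynaptic density, was at 174 to 243 CPM in controls and 226 to 275 CPM in CUS mice, a log2 fold change of 0.27 (SE 0.12), and was called lower in bulk mPFC at -0.35. The member with the largest fold change, Klf2, rested on CUS mouse 1 with 7.58 CPM, and its log2 difference of 0.86 went to 0.03 without that mouse.

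Genes of the glucocorticoid response were mostly on the higher side, and the receptors Nr3c1 and Nr3c2 were not. Of 21 tested glucocorticoid-induced genes, 17 were higher and 4 lower, with a median log2 fold change of 0.26, and 2 were higher at an unadjusted p under 0.05, where 4.19% of all tested genes were. The median was 0.10 without CUS mouse 1 and 0.33 without CUS mouse 2. In bulk mPFC 7 of the 21 were higher and 14 lower, with a median of -0.04. Arrdc2, an arrestin-domain gene induced by glucocorticoids, was at 3.77 to 4.70 CPM in controls and 10.2, 7.24, 4.94 and 5.60 CPM in CUS mice 1 to 4, with no overlap, and its log2 ratio was 1.14 within the low and 0.20 within the high mitochondrial set. Fkbp5, a chaperone that damps the receptor, was at 20.6 to 28.8 CPM in controls and 25.1 to 31.3 CPM in CUS mice, a log2 difference of 0.19 (SE 0.13), and the kinase Sgk1 had one of -0.08 (SE 0.10). The groups overlapped for both genes, which were picked out after their values were seen. Nr3c1 was at 190, 197, 179 and 178 CPM in control mice and 140, 162, 167 and 173 CPM in CUS mice. All 4 CUS mice were below the controls, by a log2 difference of -0.22 (SE 0.10, unadjusted p = 0.0416 by edgeR). Nr3c2 had a log2 difference of -0.29 (SE 0.16) with overlapping groups, which ranged from -0.43 to -0.15 when each mouse was left out. In bulk mPFC Nr3c2 was called lower at -0.23. Crhr1, the receptor of corticotropin-releasing hormone, had a log2 difference of 0.10 (SE 0.13). Of all 12 tested genes of corticosteroid receptors and corticotropin-releasing hormone 9 were higher and 3 lower. At an unadjusted p under 0.05, 0 were higher and 1 lower. Their median of 0.08 became 0.04 without control mouse 4 and 0.14 without CUS mouse 2. With the short-gene covariate described with gene span below it was -0.05.

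Metallothionein genes summed to 85.3 to 124 CPM in control mice and 217, 77.9, 143 and 151 CPM in CUS mice 1 to 4. Mt3, the brain metallothionein, was at 18.6, 19.3, 26.9 and 17.3 CPM in control mice and 44.3, 14.2, 41.7 and 42.8 CPM in CUS mice. CUS mice 1, 3 and 4 were well above the controls and CUS mouse 2 was below all of them. Over all mice the log2 fold change of Mt3 was 0.80 (SE 0.26). Without CUS mouse 2, which was singled out from the same data, it was 1.04. Hspa8, a constitutive heat shock chaperone, was at 62.5 to 126 CPM in controls and 157, 65.5, 140 and 151 CPM in CUS mice 1 to 4, with CUS mouse 2 inside the control range, and the log2 fold change of Hspa8 was 0.55 with that mouse and 0.76 without it. Of 16 tested heat shock genes 11 were higher and 5 lower, with 2 higher at an unadjusted p under 0.05, and their sums in CUS mice 1 and 2 were inside the control range. The median log2 fold change over heat shock genes was 0.15, which became 0.21 without CUS mouse 2, 0.10 without CUS mouse 1 or control mouse 2 and 0.09 without control mouse 4. Over the 3 metallothioneins it was 0.49, which became 0.10 without CUS mouse 1 and 0.68 without CUS mouse 2. In bulk mPFC the median was -0.24 over heat shock genes (4 higher and 12 lower) and -0.40 over metallothioneins (0 higher and 3 lower).

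Among clock genes, Ciart and Dbp had lower means in CUS mice and the core repressor Per2 a higher mean. Ciart, which encodes a repressor of the clock, was at 18.5 to 24.5 CPM in controls and 18.9, 13.1, 9.44 and 13.9 CPM in CUS mice 1 to 4, so that CUS mouse 1 overlapped the controls, with a log2 fold change of -0.69 (SE 0.18). Dbp, a transcription factor driven by the clock, was at 49.6 to 60.0 CPM in controls and 28.0 to 49.3 CPM in CUS mice, a log2 fold change of -0.43 (SE 0.15). Per2 was at 14.9 to 21.9 CPM in controls and 37.0, 29.2, 21.5 and 27.3 CPM in CUS mice 1 to 4, with CUS mouse 3 inside the control range and a log2 fold change of 0.58 (SE 0.16). Its log2 ratio was 0.95 within the low and 0.20 within the high mitochondrial set, and it was called higher in bulk mPFC at 0.37 (adjusted p = 0.0304 by edgeR). Over 19 tested clock genes 9 were higher and 10 lower, with a median of -0.04 whose sign turned in 4 of 21 settings. The hour of collection was not given for each mouse, and its part in these differences was not tested.

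Genes of inhibitory synapses were mostly lower, and those of excitatory synapses were mixed. Of 22 tested genes of inhibitory synapses 18 were lower, with a median log2 fold change of -0.16, and 3 were lower at an unadjusted p under 0.05 against 3.56% of all genes. The median was -0.09 without CUS mouse 1, -0.22 without CUS mouse 2 and -0.11 with the short-gene covariate. These genes have a median span of 91.1 kb, and like the striatal markers their sum was below the controls in CUS mice 1, 3 and 4 and not in CUS mouse 2. The part of striatal nuclei in this was not tested. Gabra4, a GABA-A receptor subunit, was at 194, 201, 178 and 188 CPM in control mice and 138, 176, 152 and 149 CPM in CUS mice. The groups lay apart, with CUS mouse 2 next to the lowest control, and the log2 fold change was -0.31 (SE 0.10). Gad2, an enzyme that makes GABA, had a log2 fold change of -0.28 (SE 0.11) with overlapping groups. Of 54 excitatory synapse genes 26 were higher and 28 lower, 5 and 2 of them at an unadjusted p under 0.05, with a median of -0.03 whose sign turned in 7 of 21 settings. Without CUS mouse 2 the median of the excitatory synapse genes was -0.09, with 10 higher and 12 lower at an unadjusted p under 0.05. Over all genes 1478 of 18213 were higher and 1352 lower at that threshold without CUS mouse 2. Nrxn2, a presynaptic adhesion molecule, and Shank1, a postsynaptic scaffold, had log2 fold changes of 0.38 (SE 0.14) and 0.35 (SE 0.13) with overlapping groups. In bulk mPFC 12 of the 22 inhibitory synapse genes were higher and 10 lower, with a median of 0.02. Of the 54 excitatory synapse genes 41 were higher there and 13 lower, with a median of 0.07. Bulk called 7 of them higher and 2 lower, where 1.16% and 2.13% of all genes were called.

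Of 38 axon guidance genes 25 were lower and 13 higher, with a median of -0.10 and 1 gene in each direction at an unadjusted p under 0.05. These are long genes, with a median span of 230 kb, and the longest 10% of all genes had a median of -0.11. With the short-gene covariate the median of the list was -0.02. Without CUS mouse 2 it was -0.13, with 2 higher and 10 lower at an unadjusted p under 0.05. Without CUS mouse 1 it was -0.05, with 1 higher and 3 lower. Over all genes 1478 of 18213 were higher and 1352 lower at that threshold without CUS mouse 2. Without CUS mouse 1 these counts were 481 and 341 of 17686. Slit2, a secreted repellent for growing axons, was at 162 to 212 CPM in controls and 109, 152, 148 and 149 CPM in CUS mice 1 to 4, without overlap. Its log2 fold change was -0.40 (SE 0.12), and it was called lower in bulk mPFC at -0.49 (adjusted p = 0.0368 by edgeR).

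Several adhesion molecules and regulators that the study named had lower means in CUS mice. The study named them with results of this series in view, so their direction is no independent evidence. Adam23, a non-catalytic metalloprotease of the synapse, was at 282, 289, 282 and 278 CPM in control mice and 187, 252, 234 and 225 CPM in CUS mice. All CUS mice were below all controls, with a log2 fold change of -0.33 (SE 0.10, unadjusted p = 0.00585 by edgeR), and the bulk value was also -0.33 (adjusted p = 0.0453). Alcam, a cell adhesion molecule of the immunoglobulin superfamily, was at 535 to 573 CPM in controls and 373, 536, 430 and 388 CPM in CUS mice 1 to 4, a log2 fold change of -0.36 (SE 0.12). Grm3, a metabotropic glutamate receptor, was at 454 to 568 CPM in controls and 299, 545, 397 and 377 CPM in CUS mice 1 to 4. For both genes CUS mouse 2 was inside the control range and the other 3 CUS mice were below it. Without CUS mouse 2, which was singled out from the same data, the log2 fold changes were -0.48 for Alcam and -0.53 for Grm3. Negr1, an adhesion molecule anchored in the membrane, had a log2 difference of -0.26 (SE 0.14) and Syt1, the calcium sensor of synaptic vesicles, of -0.12 (SE 0.13), both with overlapping groups.

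Yy1, a zinc-finger protein that joins enhancers to promoters, was at 75.1, 66.0, 69.9 and 64.8 CPM in control mice and 53.9, 53.6, 62.1 and 59.3 CPM in CUS mice. The 4 CUS mice, mouse 2 included, were below the controls, with a log2 fold change of -0.27 (SE 0.09, unadjusted p = 0.0128 by edgeR, adjusted p = 0.630). In bulk mPFC the value was -0.07 with overlapping groups. Of 12 genes of chromatin loops 11 were lower, 1 of them at an unadjusted p under 0.05, with a median of -0.11 that became -0.07 without CUS mouse 1 and with the short-gene covariate. Ctcf, the insulator protein, was at 99.8 to 121 CPM in controls and 99.7 to 117 CPM in CUS mice, a log2 difference of -0.04 (SE 0.10). Cdk9, the kinase that releases paused RNA polymerase II, was at 23.7 to 29.5 CPM in controls and 53.2, 42.0, 28.5 and 31.7 CPM in CUS mice 1 to 4, a log2 fold change of 0.59 (SE 0.17).

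Genes of the ribosome and the respiratory chain were higher in CUS mice 1, 3 and 4 and not in CUS mouse 2. Of 77 tested cytosolic ribosomal protein genes 65 were higher, 15 of them at an unadjusted p under 0.05 and 0 lower, with a median log2 fold change of 0.19. At that threshold 4.19% of all tested genes and 6.63% of those under 10 kb were higher. Their summed level was 1780 to 2062 CPM in control mice and 2654, 1700, 2152 and 2242 CPM in CUS mice 1 to 4. The respiratory chain genes encoded in the nucleus, of which 66 of 74 were higher, 5 at an unadjusted p under 0.05, with a median of 0.15, summed to 4886 to 6344 CPM in control mice and 7160, 4729, 6679 and 6552 CPM in CUS mice 1 to 4. In both sums 3 CUS mice lay above all controls and CUS mouse 2 lay below all of them. Without CUS mouse 2 the medians were 0.25 and 0.27, with 30 ribosomal and 40 respiratory genes higher at an unadjusted p under 0.05. Without CUS mouse 1 the medians were 0.11 and 0.09, with 4 and 1 genes at that threshold. The ribosomal median was also 0.11 without control mouse 2, and the respiratory median was 0.08 without control mouse 4. Over all genes 1478 of 18213 were higher at that threshold without CUS mouse 2 and 481 of 17686 without CUS mouse 1. Rpl37, a protein of the large ribosomal subunit, was at 19.6 to 32.6 CPM in controls and 47.7, 20.3, 41.1 and 44.2 CPM in CUS mice 1 to 4. Atp5k, a subunit of ATP synthase, was at 46.3 to 80.8 CPM in controls and 128, 49.3, 108 and 89.2 CPM in CUS mice 1 to 4. Without CUS mouse 2 the log2 fold change went from 0.53 to 0.72 for Rpl37 and from 0.55 to 0.76 for Atp5k. In bulk mPFC the median was 0.01 over the ribosomal and 0.06 over the respiratory genes, with 0 called in either direction.

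**Figure D3:**
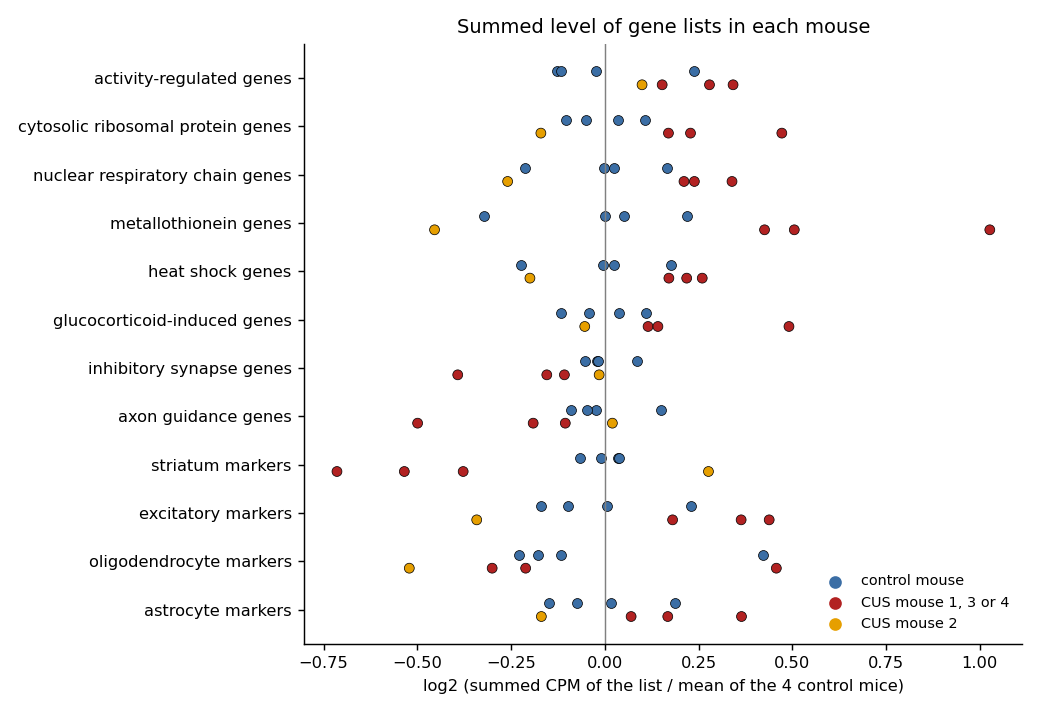
Each line of points gives the summed CPM of a gene list in every mouse as the log2 ratio to the mean of the 4 control mice (horizontal axis), for control mice (blue), CUS mice 1, 3 and 4 (red) and CUS mouse 2 (orange). CUS mouse 2 lies away from the other CUS mice for the ribosomal list (1700 against 2152 to 2654 CPM) and for the striatal markers (1444 against 727 to 918 CPM).

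Fold changes followed the length of the gene. Spans from the deposited bulk tables (mm10) covered 15799 of the tested genes (90.0%). Across genes, which are not independent replicates and share the same 8 libraries, Spearman's rho between span and log2 fold change was -0.30 in nuclei and -0.25 in bulk mPFC. When the genes were ranked by span and split into 10 equal groups, the median log2 fold change went from 0.10 in the shortest, with a median span of 2.80 kb, to -0.11 in the longest, with a median span of 250 kb. The shares of genes higher in CUS mice were 68.6% and 25.2%. In bulk mPFC the corresponding medians were 0.09 and -0.04.

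**Figure D4:**
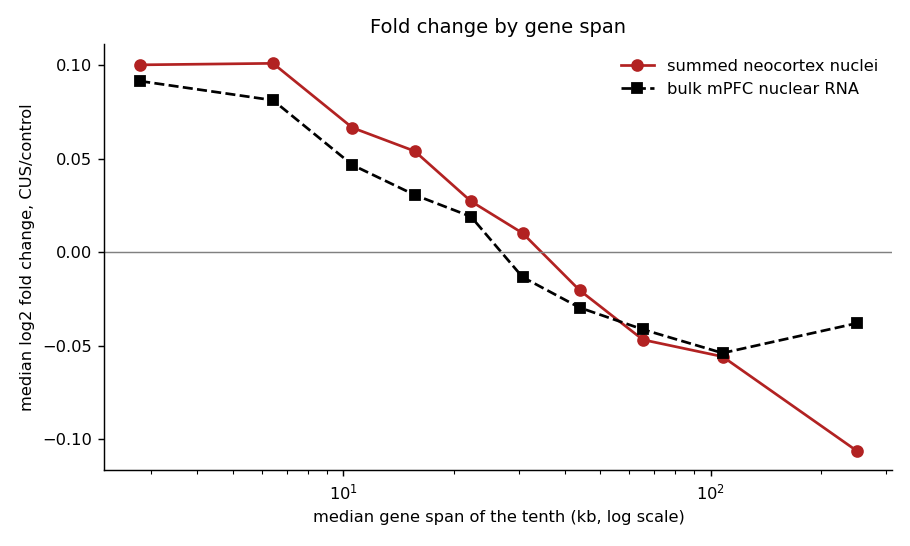
Median log2 fold change, CUS over control, in 10 equal groups of genes ranked by span (log axis, kb), for summed nuclei (red circles) and bulk mPFC nuclear RNA (black squares). Both lines start at 0.10 or 0.09 for the shortest genes and lie below 0 for genes longer than about 40 kb.

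The share of UMIs that fell on genes under 10 kb, leaving out the abundant nuclear RNA Malat1, was 8.79% to 9.91% in control mice. In CUS mice 1, 3 and 4 it was 11.9% (95% Wilson interval 11.86 to 11.90), 10.3% (10.30 to 10.34) and 10.7% (10.69 to 10.73), and in CUS mouse 2 it was 8.38% (8.35 to 8.40). These intervals cover counting error only. CUS mouse 2 was thus below the controls and the other CUS mice were above them. With this share as a covariate, a setting added after the data were seen, the median log2 fold change went from 0.19 to 0.03 over ribosomal genes, from 0.15 to -0.04 over respiratory genes, from 0.49 to 0.02 over the 3 metallothioneins, from 0.15 to -0.01 over heat shock genes and from 0.26 to 0.08 over glucocorticoid-induced genes. Over activity-regulated genes it went from 0.36 to 0.21, with 6 genes higher at an unadjusted p under 0.05 against 404 of all 17545 genes. Of the 38 activity-regulated genes under 10 kb, 13 (34.2%) were higher at that threshold with a median of 0.38, where all 3725 tested genes under 10 kb had 6.63% and a median of 0.10. The ribosomal, respiratory and metallothionein lists are largely part of this share. Under 10 kb were 74 of 77, 51 of 73 with a span, and 3 of 3 of their genes. The share also set CUS mice 1, 3 and 4 apart from the controls. A smaller median with the covariate was thus in part fixed in advance, here and for the other lists, and nothing is drawn from it. What lies behind the difference in short transcripts was not tested.

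Markers of the striatum, which borders the neocortex, were present in every mouse and lower in CUS mice 1, 3 and 4. Of 10 striatal markers 10 were lower, 7 at an unadjusted p under 0.05 where 3.56% of all tested genes were, with a median log2 fold change of -0.52. Their sum was 1140 to 1225 CPM in control mice and 918, 1444, 823 and 727 CPM in CUS mice 1 to 4. Over all mice the two-sided exact permutation p of this sum was 0.2. Without CUS mouse 2 the remaining CUS mice were all below the controls (two-sided exact permutation p = 0.0286, the smallest the design allows, adjusted p = 0.450 over 21 measures). CUS mouse 2 was the only CUS mouse above them, so leaving it out fixed this p in advance, and nothing is drawn from it. Drd2, a dopamine receptor, was at 10.4, 10.3, 9.38 and 10.7 CPM in control mice and 5.68, 9.46, 4.61 and 4.38 CPM in CUS mice, and its log2 fold change was -0.78 with CUS mouse 2 and -1.05 without it. Penk, the precursor of enkephalins, was at 165 to 201 CPM in controls and 148, 141, 110 and 101 CPM in CUS mice 1 to 4, and was among the 4 striatal markers for which all CUS mice were below all controls. Rgs9, a striatal regulator of G-protein signalling, was at 158 to 202 CPM in controls and 113, 212, 91.0 and 68.4 CPM in CUS mice 1 to 4, and its log2 fold change was -0.62 with CUS mouse 2 and -1.03 without it. The log2 ratio of Rgs9 was -0.30 within the low mitochondrial set, which holds CUS mouse 2, and -1.08 within the high set. In bulk mPFC 9 of the 10 striatal markers were lower and 1 was called higher, with a median of -0.88. The amount of striatum in each dissection was not measured, and its part in the lower values of genes that striatum also expresses was not tested.

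Neuronal and glial markers of the cortex itself differed less. All 5 excitatory markers were higher, with a median of 0.26 and 1 at an unadjusted p under 0.05, and summed to 932 to 1231 CPM in controls and 1189, 828, 1349 and 1421 CPM in CUS mice 1 to 4. Their median was 0.05 with the short-gene covariate, 0.14 without control mouse 2 or 4, 0.15 without CUS mouse 4 and 0.36 without CUS mouse 2. All 4 markers of layer 2/3 excitatory neurons were lower, with a median of -0.10 and 1 at an unadjusted p under 0.05, and the median was -0.04 without CUS mouse 1, -0.05 without control mouse 2 and -0.07 without control mouse 3 or CUS mouse 2. Neurod6, a transcription factor of excitatory neurons, had a log2 fold change of 0.39 (SE 0.15), and was called higher in bulk mPFC at 0.46 (adjusted p = 0.0119 by edgeR). All 7 astrocyte markers were higher with a median of 0.24, and all 7 oligodendrocyte markers were lower with a median of -0.15, in each case with 0 at an unadjusted p under 0.05. The astrocyte median was 0.07 without CUS mouse 1 and 0.01 with the short-gene covariate, and the oligodendrocyte median was -0.02 without control mouse 2, -0.03 without CUS mouse 2 and -0.31 without CUS mouse 1. Of the 4 layer 6 markers 3 were lower, and their sum differed with an unadjusted exact permutation p of 0.0571, the smallest among 21 measures per mouse, of which 0 had an adjusted p under 0.05 (smallest 0.733). Foxp2, a factor of layer 6 neurons that striatal neurons also express, was at 117 to 174 CPM in controls and 75.3, 119, 115 and 93.8 CPM in CUS mice 1 to 4. In bulk mPFC 1 astrocyte marker was higher and 6 lower, with a median of -0.40. All 7 oligodendrocyte markers were lower there, with a median of -0.50.

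Among the barcodes kept by the filter, markers of vessels, blood and choroid plexus were high in some CUS mice only. Endothelial markers (4 of 5 tested, all higher) summed to 5.03 to 20.7 CPM in control mice and 103, 53.1, 8.61 and 8.07 CPM in CUS mice 1 to 4. Haemoglobin genes (4 of 4 higher) summed to 11.4 to 28.0 CPM in controls and 63.8, 22.6, 49.2 and 18.6 CPM in CUS mice 1 to 4. Choroid plexus markers (5 of 10 tested, 3 higher) summed to 158 to 199 CPM in controls and 179, 356, 180 and 319 CPM in CUS mice 1 to 4. That list includes Enpp2, which also served as a layer 2/3 marker, and Ttr was at only 1.33 to 24.1 CPM in controls. The sum is therefore not a measure of choroid plexus alone. Flt1, a VEGF receptor of endothelium, and Ttr, the transthyretin of choroid plexus, had log2 fold changes of 2.33 (SE 0.66) and 3.47 (SE 0.82). Leaving out each mouse gave 1.42 (without CUS mouse 1) to 2.69 for Flt1, and 2.83 (without CUS mouse 2) to 5.74 (without control mouse 3) for Ttr. The mice that were high differed from marker to marker, so these sums did not follow the groups as a whole.

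Leaving out CUS mouse 2 turned 0 calls into 1010. Over 18213 genes tested in the remaining 7 mice, 555 were higher (3.05%) and 455 lower (2.50%) at a false discovery rate of 0.2, and 22 at 0.05. Leaving out any other mouse gave 0 or 1 call. CUS mouse 2 was singled out from these same data, so the false discovery rates of the 1010 calls are not valid error rates. In the 555 higher genes CUS mouse 2 lay above all controls in 132, within them in 302 and below all of them in 121. In the 455 lower genes it lay below all controls in 102, within them in 244 and above all of them in 109. The calls therefore describe CUS mice 1, 3 and 4. Only 1 of these, CUS mouse 1, belongs to the set of low mitochondrial share, against 2 of the 4 controls, so the groups were no longer balanced over these sets. With a term for the set, added after the data were seen, 4136 genes were called without CUS mouse 2 (2055 higher and 2081 lower), among them all 1010. On the first principal component, with 30.5% of the variance, CUS mouse 2 (-28.6) lay beside control mice 1 and 4 (-24.7 and -26.8), which share its low mitochondrial share, and CUS mouse 1 (7.94) did not. On the second, with 23.9% of the variance, CUS mouse 1 (46.1) lay apart from the other 7 mice (-23.9 to 1.43). CUS mouse 2 was thus not the only CUS mouse that stood apart.

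In those 3 mice the lower genes were led by Dach1, a transcriptional repressor, Rarb, a retinoic acid receptor of striatal neurons, and Sh3rf2, named here after their values were seen. Dach1 was at 73.2 to 91.3 CPM in controls and 32.8, 85.0, 42.7 and 37.4 CPM in CUS mice 1 to 4. Its log2 fold change without CUS mouse 2 was -1.12 (adjusted p = 0.00289 by edgeR), against -0.74 with it and -0.55 in bulk mPFC (adjusted p = 0.0152). Rarb and Sh3rf2 had log2 fold changes of -1.07 and -1.25, and in both CUS mouse 2 was above every control. Plppr1, a membrane protein of growing axons, was at -0.75 without CUS mouse 2 and -0.69 in bulk mPFC (adjusted p = 0.0130). Htr2c, a serotonin receptor, was at -0.63 without CUS mouse 2 and was also called lower in bulk mPFC, at -0.69. Mical2 and Vgf were called without CUS mouse 2 at 0.69 and 0.56 (adjusted p = 0.0206 and 0.0319 by edgeR).

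By list, the calls without CUS mouse 2, which took in 3.05% of all genes tested as higher and 2.50% as lower, held 8 of 55 activity-regulated genes (Vgf, Bhlhe40, Nptx2, Plk3, Egr3, Nr4a1, Dusp6 and Klf10), all higher. They also held 21 of 77 ribosomal and 23 of 74 respiratory genes, all higher, and 8 of the 10 striatal markers, all lower. Among 22 inhibitory synapse genes 4 were called lower, the receptor subunits Gabra4, Gabra2 and Gabrg3 and the scaffold gephyrin (Gphn), and 0 higher. Among 38 axon guidance genes 6 were called lower, Slit2 and Slit3 and the receptors Dcc, Robo1, Unc5c and Plxnd1, and 1 higher, Srgap1. The 54 excitatory synapse genes were mixed, with 6 called higher and 5 lower.

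The bulk mPFC RNA came from a smaller region, an older age and other animals, and edgeR's quasi-likelihood test called 214 genes higher (1.16%) and 392 lower (2.13%) of 18394 at a false discovery rate of 0.05. Of 15039 genes tested in both assays 59.6% had the same sign. Of the 657 genes that were higher in nuclei at an unadjusted p under 0.05, 72.1% were also higher in bulk, against 55.8% of all genes of the same span. Of the 502 that were lower, 78.1% were also lower in bulk, against 56.2% of all genes of the same span. Among these, bulk RNA called 20 of the higher genes in the same direction and 7 in the opposite one, and 36 and 0 of the lower genes. For the 1010 genes called without CUS mouse 2, the bulk sign was the same in 355 of 485 higher (73.2%) and 286 of 362 lower genes (79.0%) that were tested. The share over genes of the same span was not computed for these calls, so how far their shared sign goes with span is not known.

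**Figure D5:**
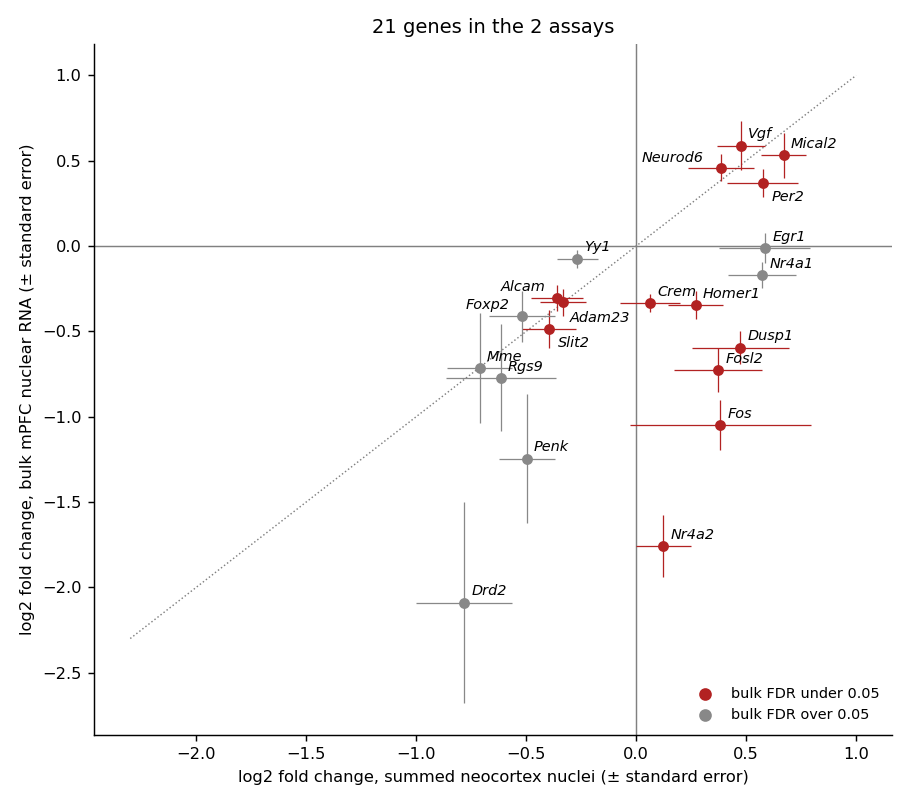
Log2 fold change, CUS over control, of 21 genes in summed neocortex nuclei (horizontal axis) against bulk mPFC nuclear RNA (vertical axis), with standard errors as bars, equality as the dotted line and genes called in bulk at a false discovery rate of 0.05 in red. Mical2, Vgf, Per2, Adam23 and Slit2 have the same sign in both, whereas Nr4a2, Fos, Fosl2, Dusp1 and Homer1 are above 0 in nuclei and below 0 in bulk.

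Activity-regulated genes were mixed in bulk mPFC. Of 54 tested there, 22 were higher and 32 lower, with 3 called higher and 12 lower, where 1.16% and 2.13% of all genes were called. The median log2 fold change was -0.08, where it was 0.36 in nuclei. Fos was at -1.05 in bulk (adjusted p = 0.00567 by edgeR) and 0.38 in nuclei, Fosl2, another AP-1 subunit, was at -0.73 and 0.37, and Dusp1 was at -0.60 and 0.47. The difference between the assays, tested as an interaction in edgeR, did not pass a false discovery rate of 0.05 for these 3 genes (adjusted p = 0.355, 0.118 and 0.171). Crem, a cyclic AMP-responsive factor, was called lower in bulk at -0.33 and was at 0.06 (SE 0.14) in nuclei.

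The interaction was called for 6 of 19838 genes (0.0302%), with 1879 at an unadjusted p under 0.05. CPM in this comparison are without TMM factors. Nr4a2, an orphan nuclear receptor of the same family as Nr4a1, was at 8.08, 11.0, 6.02 and 9.66 CPM in bulk control mice and 2.10, 3.31, 2.65, 2.58 and 1.96 CPM in bulk CUS mice. In nuclei its means were 38.3 CPM in control and 42.7 CPM in CUS mice, so that the bulk groups lay apart and the nuclei groups overlapped. The log2 fold changes differed by 1.87 (SE 0.22, adjusted p = 0.000492 by edgeR), and the call held whichever of the 17 mice was left out. Igfbpl1, a secreted binding protein of immature neurons, and Spag16, an axonemal protein of motile cilia, differed by 3.43 (SE 0.53) and 1.86 (SE 0.29), and their calls held in 17 and 16 of 17 such fits. Igfbpl1 was scarce in bulk, at 0.345 to 1.73 CPM in control mice and 0.0678 to 0.308 CPM in CUS mice. In nuclei its means were 3.38 and 4.19 CPM, so the size of its difference rests on bulk values near the floor. The calls of Mob3a, Nnat and Gm13844 held in 7, 5 and 7 of 17. Region, age, assay, behavioural testing and the time since the last stressor all differ between the sets and cannot be told apart.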

How the data were processed

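Nuclei were profiled by sNucDrop-seq in 8 mice, and bulk nuclear RNA by RNA-seq in 9. The deposited sNucDrop-seq files hold counts of UMIs per gene and barcode, which the authors made from reads aligned to mm10 (STAR, per the submitters' processing notes) against Gencode annotation, counting exonic and intronic reads on the predicted strand and merging UMIs within edit distance 1. Each held 5000 barcodes, and how these were selected was not given in the sources used here. The bulk tables hold raw counts per gene deposited by the authors. Samples were grouped by GEO's labels.

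Barcodes with fewer than 600 genes (8246), more than 5000 genes (143) or at least 5% mitochondrial UMIs (125) were removed, no doublet caller was run, and UMIs were summed per mouse. Genes passing filterByExpr were tested with edgeR 4.0.16 (R 4.3.3; TMM, quasi-likelihood) on group alone, at a false discovery rate of 0.2 for nuclei and 0.05 for bulk and the interaction. The study used edgeR's likelihood ratio test within each cluster, with a batch term. The batch was not available per mouse. DESeq2 1.42.0, other scalings, filters, thinning, leaving out each mouse and a block on replicate number were alternatives. The same-numbered mice did not deviate together (correlations -0.22 to 0.25). Numbers were not used as pairs in the main fit, though this check cannot exclude pairing. Named genes were those called, those with the 3 largest fold changes in each list and those the study names, and all others were chosen after their values were seen. Some named items are not reported here. Members and lists were chosen with earlier results of these data known. Values per mouse were tested by exact permutation over 70 assignments. The code was tested on simulated counts. Strand in the bulk counting was not checked, so overlapping antisense genes and near-identical ribosomal pseudogenes are uncertain.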

Additional observations from a re-analysis of the deposited data

Results flagged for a closer look

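In 11 of 228 groups of 4 mice examined, 1 animal lay further from the rest than Dixon's criterion allows, where chance gives about 1 in 20 groups. CUS mouse 2 was low for Nptx1 (61.8 CPM, the next CUS mouse 85.5), Mt3 (14.2 CPM, next 41.7) and Slc17a7 (136 CPM, next 206). CUS mouse 1 was low for Slit2 (109 CPM, next 148), and high for Dbn1 (77.4 CPM, next 66.8). Control mouse 3 was high for Penk (201 CPM, next 171) and Ttr (24.1 CPM, next 1.92), and low for the sum of layer 4 markers (225 CPM, next 248). Control mouse 2 was high for the sums of layer 5 markers (167 CPM), oligodendrocyte markers (1188 CPM) and dentate gyrus markers (27.3 CPM).

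The log2 fold changes of 6 genes differed between summed nuclei and bulk mPFC RNA by the interaction test of edgeR. The difference, nuclei minus bulk, was 1.87 for Nr4a2, 3.43 for Igfbpl1, 1.86 for Spag16, 1.32 for Mob3a, 1.19 for Nnat and -1.01 for Gm13844. Igfbpl1 was near the floor in bulk, with means of 1.17 CPM in control and 0.13 CPM in CUS mice. Mob3a was higher in CUS nuclei without overlap (1.67 to 2.63 CPM after TMM scaling in controls, 3.34 to 4.64 CPM in CUS mice) and called lower in bulk at -0.49.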

How the results depend on the processing

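The count of genes called in nuclei was 0 and depended on the test and on the mice. It was 25 by edgeR's likelihood ratio test, 17 by DESeq2 (4762 adjusted p not given), 410 with no filter on genes, 2 with at least 1000 genes per barcode, 2 with an equal number of barcodes per mouse, and 1 each with barcodes thinned to 1000 UMIs, with the methods' gene filter, without shared barcodes and with a term for the mitochondrial set. Leaving out each mouse gave 0 to 1010 (1010 without CUS mouse 2), and leaving out CUS mouse 2 together with a term for the mitochondrial set gave 4136. It stayed at 0 without TMM, with no filter on barcodes, with the short-gene covariate and with the replicate block. The number at an unadjusted p under 0.05, 1359, became 2725 with no gene filter, 428 with the methods' filter, 2150 with the mitochondrial term, 736 with the short-gene covariate, 822 without CUS mouse 1 and 2830 without CUS mouse 2.

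In bulk the 606 calls became 1330 by the likelihood ratio test, 233 with the replicate block and 133 to 1508 when each mouse was left out (133 without control mouse 2, 1508 without control mouse 3). Without TMM there were 822, of which 24.7% were higher, against 35.3%. The 6 interaction calls became 58 by the likelihood ratio test, 10 with no gene filter and 2 to 31 when each mouse was left out (31 without CUS mouse 2 of the nuclei). Not every named gene was followed through the settings, and among those that were the sign of 2 turned in nuclei: the log2 difference of Ctcf ranged from -0.10 to 0.012 (without CUS mouse 4) and that of Crem from -0.029 (without control mouse 4) to 0.15. The cause of these changes was not tested. Genes with too few UMIs in the sums were not tested, so nothing is said of them.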
